A study of Homo sapiens with 10 samples.

Results

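The S100 genes encode small calcium-binding proteins, and 10 genes were followed here in human 697 cells, a pre-B acute lymphoblastic leukaemia line. The members were the rows of the deposited expression table whose gene symbol was S100A4, S100A6, S100A8, S100A9, S100A10, S100A11, S100A13, S100A16, S100PBP or S100Z, which is 10 of 27142 genes. They were compared between 2 libraries from parental 697 cells given 0.5 µg/ml TPA and 2 libraries from parental 697 control cells without TPA. TPA (12-O-tetradecanoylphorbol-13-acetate) is a phorbol ester that activates protein kinase C, and the labels give its exposure only as a range of 0 to 24 h. The other 6 samples of the series (2 CTCF ChIP-seq, 2 linker histone H1 ChIP-seq and 2 input DNA libraries) were not analysed here. All cells came from 1 line, and no label says whether the replicates were separate cultures, which means that p-values here reflect variation among these 4 libraries that may be technical only.

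S100 proteins are dimers whose subunits carry a pair of EF-hand loops; calcium opens a surface through which they grip target proteins such as annexins and myosin. Several are also secreted and act on receptors such as RAGE and TLR4. In blood, S100A8 and S100A9 are abundant in neutrophils and monocytes, and S100A4, S100A6, S100A10 and S100A11 are found in many motile and adherent cell types. S100PBP carries the family's name but is not an S100 protein; it is a nuclear protein known for binding S100P.

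The values are RPKM, read counts scaled to gene length and library size, so levels may be compared between genes. The library totals were not given. From the steps between low values, depth stood at 97.6% and 91.4% of control replicate 1 in TPA replicates 1 and 2, and at 97.2% in control replicate 2. Because the absolute depth is unknown, no counting interval is given. Of 12 B-cell precursor markers, 11 had at least 1 RPKM in both TPA libraries and 12 in both control libraries; their summed level was 1387 and 1588 RPKM with TPA and 2326 and 2323 RPKM in control. Of 16 myeloid markers, 2 reached that level in each TPA library and 1 in each control library (CEBPA throughout, CSF1R with TPA). The summed level of the 16 was 4.82 to 6.30 RPKM with TPA and 5.30 to 6.62 RPKM in control. Within that sum CEBPA was lower with TPA (1.57 and 2.23 RPKM, against 4.41 and 5.15 RPKM in control). CSF1R was higher with TPA (2.93 and 3.66 RPKM, against 0.548 and 0.706 RPKM in control). Of 6 T-cell markers CD28 alone reached 1 RPKM (14.8 and 17.9 RPKM with TPA, 0.009 and 0.004 RPKM in control), while CD3D and CD3E were listed at 0 throughout; any part of these markers in the results was not tested. None of 9 stromal and epithelial markers or of 5 erythroid markers reached 1 RPKM in any library. In RNA from whole cultures, a rise in every cell and a larger share of cells with a high level cannot be told apart.

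Promoter sequence is given first, as background to levels that ran from the top of the table to 0. RefSeq windows on GRCh38.p14 were found for 10 of 10 members, 17 windows in all, since some genes have several starts. The 250 bases before each start were searched. The windows shown are those of S100A4 and S100A13, which rose with TPA, and of S100A6, S100A10 and S100A11, which stayed under 1 RPKM in every library; capitals mark CG dinucleotides, and for S100A13 the middle of 3 listed starts is shown.
S100A4, chr1:153545807-153546056, minus strand: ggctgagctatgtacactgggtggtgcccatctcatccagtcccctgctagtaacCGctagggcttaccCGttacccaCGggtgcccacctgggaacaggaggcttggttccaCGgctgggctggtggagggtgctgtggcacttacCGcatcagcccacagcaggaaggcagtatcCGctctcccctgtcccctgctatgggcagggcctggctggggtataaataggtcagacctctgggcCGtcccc
S100A13, chr1:153627506-153627755, minus strand: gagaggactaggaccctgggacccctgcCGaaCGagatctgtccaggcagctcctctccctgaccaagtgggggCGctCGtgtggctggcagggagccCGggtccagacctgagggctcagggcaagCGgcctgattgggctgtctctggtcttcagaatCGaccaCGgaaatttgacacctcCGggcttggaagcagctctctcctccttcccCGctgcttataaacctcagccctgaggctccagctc
S100A6, chr1:153535992-153536241, minus strand: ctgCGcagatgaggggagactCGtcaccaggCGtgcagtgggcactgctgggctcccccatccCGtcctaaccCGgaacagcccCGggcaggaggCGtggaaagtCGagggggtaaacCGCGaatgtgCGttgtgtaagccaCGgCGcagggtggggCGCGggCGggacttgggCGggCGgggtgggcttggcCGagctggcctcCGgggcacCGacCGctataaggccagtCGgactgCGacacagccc
S100A10, chr1:151993860-151994109, minus strand: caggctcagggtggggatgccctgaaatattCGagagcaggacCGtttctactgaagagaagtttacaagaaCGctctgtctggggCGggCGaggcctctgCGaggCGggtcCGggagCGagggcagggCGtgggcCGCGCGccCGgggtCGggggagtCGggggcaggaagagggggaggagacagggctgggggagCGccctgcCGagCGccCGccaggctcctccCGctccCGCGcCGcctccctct
S100A11, chr1:152037005-152037254, minus strand: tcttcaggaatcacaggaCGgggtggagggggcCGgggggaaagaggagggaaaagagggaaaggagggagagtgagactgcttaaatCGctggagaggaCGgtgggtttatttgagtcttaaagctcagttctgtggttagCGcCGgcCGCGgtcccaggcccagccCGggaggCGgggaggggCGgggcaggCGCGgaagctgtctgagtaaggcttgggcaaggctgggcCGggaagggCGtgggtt

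The S100A4 window held 7 CG dinucleotides, and the 3 windows of S100A13 held 15, 10 and 8. S100A6 and S100A10 had 24 each and S100A11 had 15, against a median of 11 over 35116 RefSeq windows. The windows of S100A8 had 2 CG dinucleotides each, and those of S100A9 and S100Z had 4 each. Those of S100A16 had 1 and 6, and those of S100PBP had 1, 21 and 18. The TATA box letters TATAAA began 31 bases before the S100A4 start and 29 bases before the S100A13 start shown. That S100A13 window was picked for display because it held these letters, and the other S100A13 windows held none. The letters TATAAA were in 10.7% of all windows, on either strand, also in windows of S100A8, S100A9 and S100Z. None of the windows of S100A6, S100A10, S100A11, S100A16 or S100PBP held them. The AP-1 letters TGANTCA, the site class known as the TPA response element, were in 6.57% of all windows. Among members they were found in 1 window of S100PBP only, 149 bases before that start. Windows of S100A1 and S100A2, which are not members and are described below, were also searched. The AP-1 letters were in 1 window of S100A2, 52 bases before that start, and not in that of S100A1. The GC box letters GGGCGG (42.6% of all windows) occurred 3 times each in the S100A6 window and in 1 window of S100PBP, and once each in windows of S100A9, S100A10, S100A11, S100A13 and S100A16. The C/EBP letters TTNNGNAA (33.2% of all windows) were in windows of S100A6, S100A8, S100A9, S100A11, S100A13, S100A16 and S100PBP. A match describes these letters in this window and is not a measured site.

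**Figure D1:**
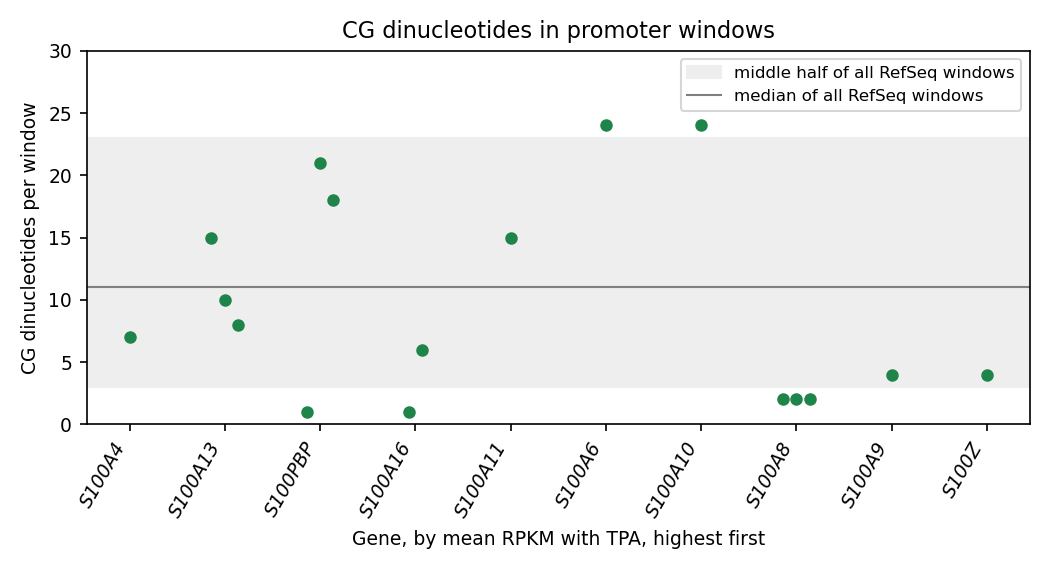
CG dinucleotides in the 250 bases before each RefSeq start (y axis, number per window) for the 10 members, ordered by mean RPKM with TPA; each point is 1 window, the grey line is the median of all windows (11) and the band spans their quartiles, 3 to 23. S100A6 and S100A10, both under 1 RPKM, have the most (24 each), and S100A4, the highest member, has 7. S100A8, S100A9 and S100Z, at 0 in every library, have 2 to 4, and S100A16, also under 1 RPKM, has 1 and 6.

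S100A4 and S100A13 were higher with TPA, S100PBP did not pass the test, and the remaining 7 members were under 1 RPKM in every library. Genes entered the test when 2 or more libraries reached 1 RPKM, which left 12159. The 3 members tested were above 1 RPKM in all 4 libraries, so none of them entered through 1 group alone. Differences were taken on log2(RPKM + 1) with limma, with Benjamini-Hochberg adjustment over the 12159 genes and a threshold of 0.05. By this test 2 members rose, 0 fell and 1 did not pass; over all genes 28.4% rose and 29.8% fell, so calls were common in this comparison. For 2 of the 3 members both TPA values lay on the same side of both control values, as they did for 79.8% of all genes tested. At an unadjusted p under 0.05 the number of members that fell was also 0 in limma.

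**Figure D2:**
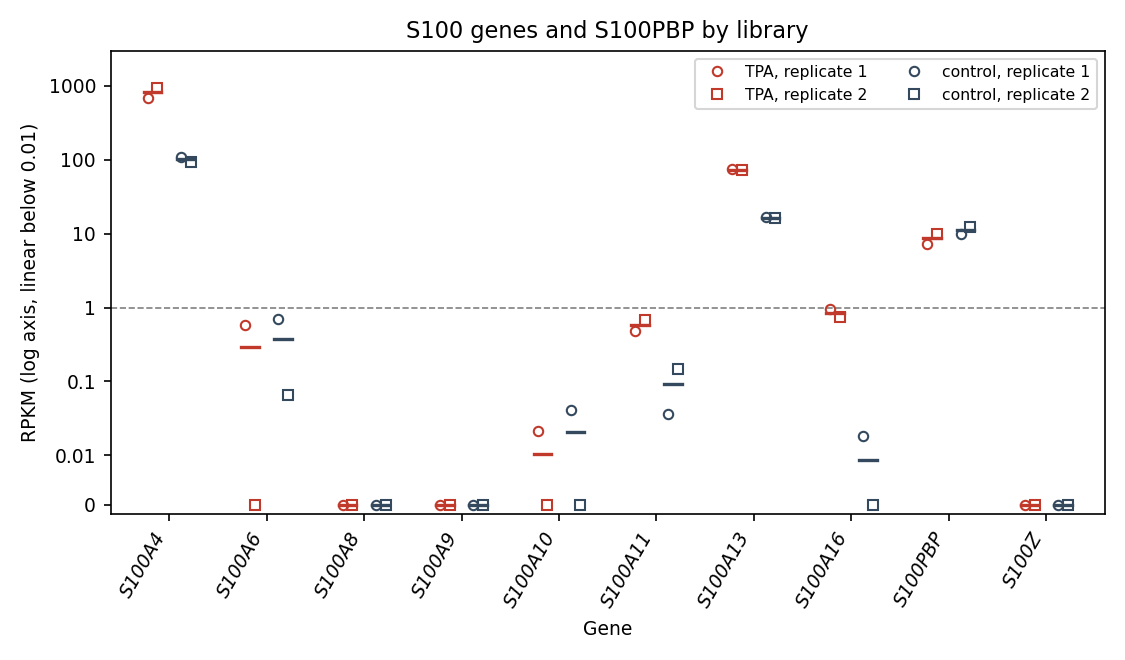
RPKM of each member in each library (y axis, log scale that is linear below 0.01 RPKM), TPA in red at left and control in dark blue at right, with circles for replicate 1, squares for replicate 2 and bars for the mean of 2. S100A4 and S100A13 lie higher in both TPA libraries, and S100A8, S100A9 and S100Z lie at 0 in all 4; the dashed line marks 1 RPKM.

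S100A4, whose product binds non-muscle myosin IIA and is known for its part in cell motility and metastasis, was the highest member in both groups. It had 687 and 949.9 RPKM in the TPA libraries, against 109.8 and 94.05 RPKM in the control libraries. Both TPA values lay far above both control values, although the TPA replicates differed from each other by more than the controls did. The mean was 818 ± 186 RPKM with TPA and 102 ± 11.2 RPKM in control (SD, n = 2 libraries each), an 8.03-fold ratio of means. On the log2(RPKM + 1) scale the difference was 2.98 (SE 0.184, limma adjusted p = 5.94e-06), with a 95% interval of 2.55 to 3.40. Leaving out each library in turn gave 2.74 to 3.21. By level, S100A4 ranked 53 of 27142 genes with TPA and 589 in control, and by the size of its rise it ranked 195 of 12159 genes tested.

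Genes that overlap S100A4 limit how closely its reads can be placed. In the RefSeq annotation of GRCh38.p14, S100A4 overlaps S100A5 and the long noncoding RNA gene LOC101928034, and whether counting used strand is not given in the sources used here. LOC101928034 had 35.0 and 46.4 RPKM with TPA, against 5.40 and 4.48 RPKM in control, a log2 difference of 2.80 (limma adjusted p = 5.51e-06). S100A5, a member of the family best known from olfactory neurons, had 0.741 and 1.66 RPKM with TPA, against 0.030 and 0 RPKM in control. Both neighbours were far below S100A4 in each library.

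S100A13, a protein that takes part in the copper-dependent release of FGF1 and interleukin-1α from stressed cells, was the next highest. It had 74.1 and 71.9 RPKM in the TPA libraries, against 16.6 and 16.1 RPKM in the control libraries. Replicates lay close together in both groups, and the groups did not overlap. The mean was 73.0 ± 1.59 RPKM with TPA and 16.4 ± 0.379 RPKM in control (SD, n = 2 libraries each), a 4.46-fold ratio. The log2 difference was 2.09 (SE 0.128, limma adjusted p = 5.75e-06; 95% interval 1.79 to 2.39), and it stayed between 2.07 and 2.11 with each library left out in turn. By level it ranked 794 of 27142 genes with TPA and 4349 in control.

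The S100A13 gene spans all of S100A1 and touches CHTOP in the same annotation. S100A1, a regulator of calcium handling best known from heart muscle, had 47.3 and 61.9 RPKM with TPA, against 4.16 and 8.17 RPKM in control. The ratio of its means was 8.86 (limma adjusted p = 3.81e-05). The ratio of S100A1 to S100A13 was 0.639 and 0.862 in the TPA libraries, against 0.250 and 0.507 in the control libraries. Both TPA ratios lay above both control ratios, which differed widely from each other, and the difference was not tested. CHTOP, an mRNA export factor gene, had 50.5 and 60.7 RPKM with TPA and 43.0 and 49.8 RPKM in control and did not pass (limma adjusted p = 0.189), although it passed after quantile normalization (0.38, adjusted p = 0.0152). Without strand, reads from the shared parts of S100A13 and S100A1 cannot be told apart.

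S100PBP, the S100P-binding protein gene at 1p35.1, had a lower mean with TPA but did not pass. It had 7.22 and 10.02 RPKM in the TPA libraries, against 9.996 and 12.2 RPKM in the control libraries. The groups overlapped, since TPA replicate 2 lay just above control replicate 1. The mean was 8.62 ± 1.98 RPKM with TPA and 11.1 ± 1.58 RPKM in control (SD, n = 2 libraries each). The log2 difference was -0.34 (SE 0.178, limma adjusted p = 0.135), and its 95% interval ran from -0.75 to 0.07, so a fall within that range is not shown to be absent. Without TPA replicate 2 the difference was -0.55 and passed (limma adjusted p = 0.0402), and without TPA replicate 1 it was -0.13. The deposited row carries a noncoding transcript accession of this gene (NR_135107), and the gene overlaps YARS1. Its binding partner S100P had 0.043 and 0 RPKM with TPA and 0.042 and 0 RPKM in control.

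S100A11 and S100A16 were near 0 in control and higher with TPA, but stayed under the 1 RPKM filter. S100A16, a widely expressed member, had 0.959 and 0.738 RPKM in the TPA libraries, against 0.018 and 0 RPKM in the control libraries. S100A11, which binds annexin A1, had 0.480 and 0.673 RPKM with TPA, against 0.036 and 0.149 RPKM in control. In both genes the TPA values lay above both control values. With no filter on low values 4 members rose instead of 2 (19.2% of 20115 genes above 0 in at least 1 library rose in that fit), and the added ones were S100A16 (log2 difference 0.87, limma adjusted p = 0.00359) and S100A11 (0.53, adjusted p = 0.0171). No fold is given for either gene, because the control values are close to the lowest that the table lists. S100A11 also has several processed pseudogenes, and how reads that map to more than 1 place were treated is not given in the sources used here.

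S100A6 and S100A10 showed almost no RNA. S100A6 (calcyclin), a member tied to proliferation and to the ubiquitin ligase adaptor CACYBP, had 0.577 and 0 RPKM with TPA, against 0.691 and 0.065 RPKM in control. Its higher value was in replicate 1 of each group, and the groups overlapped. S100A10 (p11), which does not bind calcium and pairs with annexin A2 at the membrane, had 0.021 and 0 RPKM with TPA, against 0.041 and 0 RPKM in control. Here too the values above 0 were in replicate 1. Neither passed with no filter (limma adjusted p = 0.852 for S100A6 and 0.735 for S100A10).

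S100A8 and S100A9, the subunits of calprotectin, were listed at 0 in all 4 libraries, as was S100Z, a little-studied member on 5q13.3. The related neutrophil gene S100A12 was also listed at 0 throughout. Of the myeloid markers, MPO, LYZ and CD14 were between 0 and 0.187 RPKM in every library. CEBPA, of the same list, was above 1 RPKM in every library, and CSF1R was above 1 RPKM with TPA.

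By level with TPA the order was S100A4, S100A13, S100PBP, S100A16, S100A11, S100A6 and S100A10, followed by the 3 genes at 0. The library values of S100A6 overlapped those of S100A11 and S100A10, and every other neighbouring pair among these 7 was separate. In control the order was S100A4, S100A13, S100PBP, S100A6, S100A11, S100A10 and S100A16, and the last 4 overlapped from one neighbour to the next. S100A4 stood 11.2 times above S100A13 with TPA and 6.22 times above it in control, as ratios of mean RPKM. S100A13 stood 8.47 times above S100PBP with TPA and 1.47 times above it in control.

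The other S100 genes of the table add to this picture. Leaving out S100PBP, the table lists 21 S100 genes, of which 9 were at 0 in every library: beside S100A8, S100A9, S100A12 and S100Z these were S100A7, S100A7A, S100A7L2, S100B and S100G. Of the 12 above 0, 9 had both TPA values above both control values and 0 had both below, while S100A6, S100A10 and S100P overlapped. Over all genes above 0, 36.6% had both TPA values above both control values. S100A2, a nuclear member best known from epithelia, had 6.34 and 4.85 RPKM with TPA, against 0.044 and 0.160 RPKM in control (log2 difference 2.57, SE 0.154, limma adjusted p = 5.04e-06). It passed the filter through the TPA libraries alone. S100A3 had 0.445 and 0.286 RPKM with TPA and was listed at 0 in control. S100A14 had 0.021 and 0.044 RPKM with TPA and was listed at 0 in control. S100A3 and S100A14 were thus counted as above 0 through the TPA libraries alone, and could not have had both TPA values below. The RPKM values of the 21 genes summed to 818 and 1092 in the TPA libraries, against 132 and 119 in the control libraries. S100A4 made up 84.0% and 87.0% of that sum with TPA, and 83.5% and 79.2% in control. S100A4 overlaps S100A5 and S100A13 overlaps S100A1, so shared reads may count more than once in the sum.

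Gene order placed these values along the chromosome. In RefSeq order, the stretch of 1q21.3 from S100A9 to S100A7 held 6 S100 genes, all listed at 0 in every library. The next stretch, from S100A6 to S100A1, held 9 S100 genes, and 8 of these (S100A5, S100A4, S100A3, S100A2, S100A16, S100A14, S100A13 and S100A1) had both TPA values above both control values; S100A6, at its edge, did not. This stretch was marked off after the values were seen, and several of its genes were near 0 or overlap each other. S100A3 and S100A14 were above 0 in the TPA libraries alone, so they could not have shown the opposite order. Of all genes above 0, 36.6% had the same order of values. Beyond S100A1 lie CHTOP and SNAPIN, which did not pass, and ILF2, which fell (178 and 203 RPKM with TPA, 239 and 292 RPKM in control, log2 difference -0.47, limma adjusted p = 0.0307). SNAPIN passed after quantile normalization (0.37, adjusted p = 0.0215) and without TPA replicate 1 (0.42, adjusted p = 0.0493), and ILF2 did not pass with no filter (adjusted p = 0.0921), without TPA replicate 1 (-0.38, adjusted p = 0.125) or without control replicate 2 (-0.33, adjusted p = 0.317). Fits without a control replicate rest on another estimate of the spread, so their p-values cannot be set beside the others. S100A10 and S100A11 lie apart from this stretch within the same band.

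**Figure D3:**
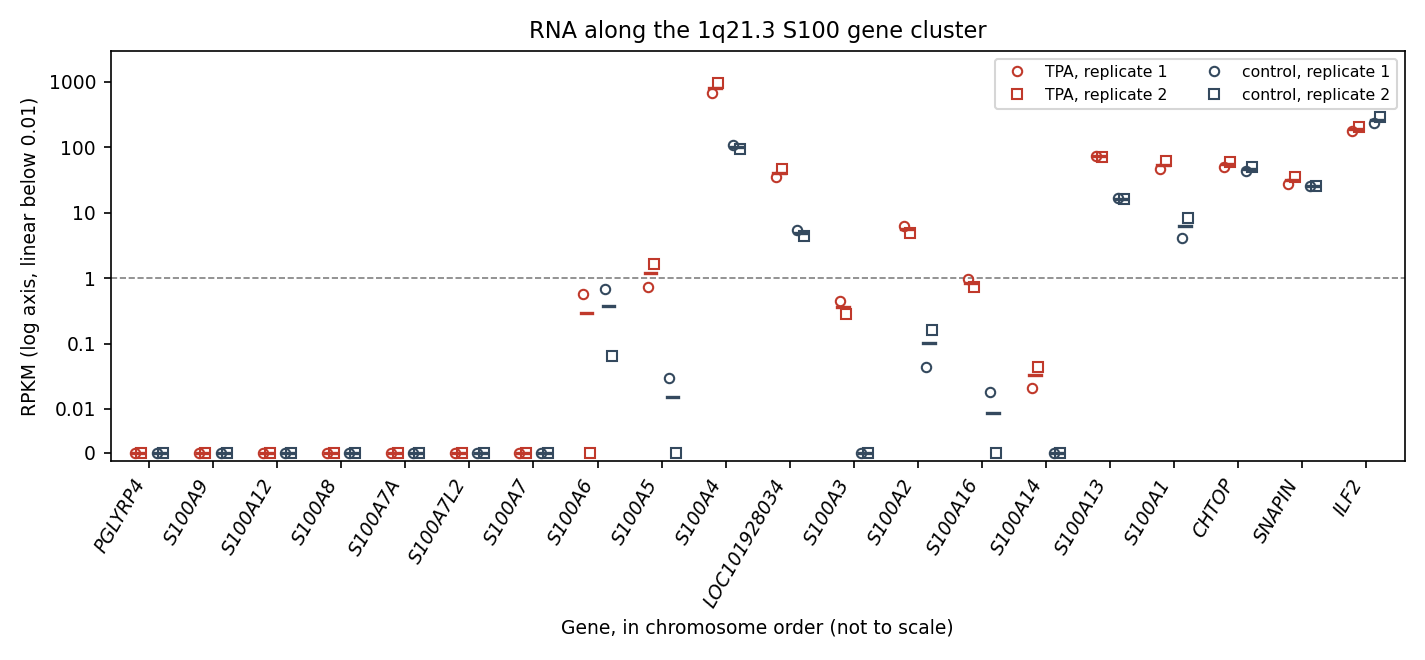
RPKM in each library (y axis, log scale that is linear below 0.01 RPKM) for genes of the table from PGLYRP4 to ILF2 in RefSeq chromosome order (x axis, spacing not to scale), TPA in red at left and control in dark blue at right, circles for replicate 1, squares for replicate 2, bars for means. The 7 genes at left are at 0, and from S100A5 to S100A1 every TPA value lies above the control values of its gene.

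Other genes of band 1q21.3 were counted for comparison. Of 65 tested genes of the band with no S100 gene among them, 23 rose, 6 fell and 36 did not pass, with a median log2 difference of 0.19, against -0.02 over all genes tested. The shares were 35.4% higher and 9.23% lower, against 28.4% and 29.8% over all genes tested, and this difference was not tested. A rise above that of S100A13 was seen in 2 of these 65. They were TNFAIP8L2 and LOC101928034. TNFAIP8L2 (TIPE2), a regulator of immune cell activation, had 31.2 and 37.4 RPKM with TPA against 2.90 and 3.78 RPKM in control. LOC101928034 overlaps S100A4, and without strand, reads from the shared parts of the 2 genes cannot be told apart. The largest falls were those of CKS1B, a subunit of cyclin-dependent kinases (2.04 and 3.22 RPKM with TPA, 18.2 and 23.8 RPKM in control), EFNA3, an ephrin gene (log2 difference -1.43), and PMVK, a mevalonate pathway kinase gene (-0.74).

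Genes for binding partners, receptors and targets of S100 proteins were called in either direction at shares not tested against other genes. The list holds 30 genes, of which 19 entered the test; 6 were called higher, 8 lower and 5 neither, with a median log2 difference of -0.01. These are 31.6% higher and 42.1% lower, against 28.4% and 29.8% over all genes tested. Of those called higher, ANXA1, CD68 and TLR4 entered the test through the TPA libraries alone, so they could not have been called lower. The genes called lower were above 1 RPKM in every library. Of the 11 not tested, AGER, which encodes the receptor RAGE, and IL1A were listed at 0 in every library. AGER lies in 6p21.32, where 8 of 50 protein-coding genes had a mean of at least 1 RPKM; any bearing of this on its value was not tested.

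Among the annexins, ANXA1 and ANXA2 moved in opposite directions. ANXA1, the annexin that S100A11 binds, had 10.8 and 16.1 RPKM with TPA, against 0.056 and 0.086 RPKM in control (log2 difference 3.73, SE 0.184, limma adjusted p = 2.00e-06). It entered the test through the TPA libraries alone. ANXA2, the partner of S100A10, had 13.2 and 16.2 RPKM with TPA, against 23.7 and 31.8 RPKM in control (log2 difference -0.87, SE 0.177, limma adjusted p = 0.00371), so it was present in cells with almost no S100A10 RNA. AHNAK, a large scaffold that joins the S100A10 and annexin A2 complex, had 0.340 and 0.304 RPKM with TPA and 0.062 and 0.042 RPKM in control and was not tested. ANXA11, which S100A6 binds, rose by 0.50 (65.6 and 66.3 RPKM with TPA, 46.6 and 46.0 RPKM in control, limma adjusted p = 0.0106). The ANXA11 difference was 0.51 without control replicate 1 (adjusted p = 0.0862) and 0.49 without control replicate 2 (adjusted p = 0.102); its size held, and these p-values carry the limit given for fits without a control replicate.

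For S100A13, the partners in the release of FGF1 differed in level. SYT1, the synaptotagmin whose fragment joins that complex, had 151 and 157 RPKM with TPA, against 13.1 and 13.5 RPKM in control (log2 difference 3.43, SE 0.129, limma adjusted p = 6.22e-07). FGF1, the cargo, was at 0.006 RPKM or less in every library. So in RNA, S100A13 and SYT1 both rose, while neither cargo gene (FGF1, IL1A) reached 1 RPKM. The proteins and the release complex itself were not measured here.

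For S100A4, MYH9, the heavy chain of non-muscle myosin IIA, had 76.7 and 63.3 RPKM with TPA, against 70.6 and 57.3 RPKM in control, and did not pass (log2 difference 0.13, 95% interval -0.25 to 0.51, limma adjusted p = 0.524). MYH10, the related heavy chain IIB, fell by 0.63 on this log2 scale, and PPFIBP1 (liprin β1, also bound by S100A4) rose by 0.60, a call lost without TPA replicate 2 (0.51, limma adjusted p = 0.0537) and, with the same limit, without control replicate 1 (0.45, adjusted p = 0.125). MDM2, a ubiquitin ligase gene whose product several S100 proteins bind, fell by 1.54 on this scale. TLR4, a receptor for S100A8 and S100A9, had 1.58 and 1.02 RPKM with TPA and was listed at 0 in control, and it entered the test through the TPA libraries alone (limma adjusted p = 3.03e-04). CD68, a lysosomal glycoprotein of macrophages on the same list, had 9.85 and 12.3 RPKM with TPA, against 0.554 and 0.731 RPKM in control, and likewise entered through the TPA libraries alone.

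CACYBP, the calcyclin-binding protein that S100A6 binds, had 20.6 and 24.7 RPKM with TPA, against 51.9 and 65.2 RPKM in control (log2 difference -1.33, SE 0.164, limma adjusted p = 2.48e-04). STIP1, the Hsp70 and Hsp90 organizing protein, fell by 1.16 and the phosphatase gene PPP5C by 0.82 on this log2 scale, while the co-chaperone gene SUGT1 did not pass (log2 difference -0.01). PLAUR, the urokinase receptor gene, had 2.45 and 3.31 RPKM with TPA, against 9.60 and 8.56 RPKM in control, and fell by 1.38.

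**Figure D4:**
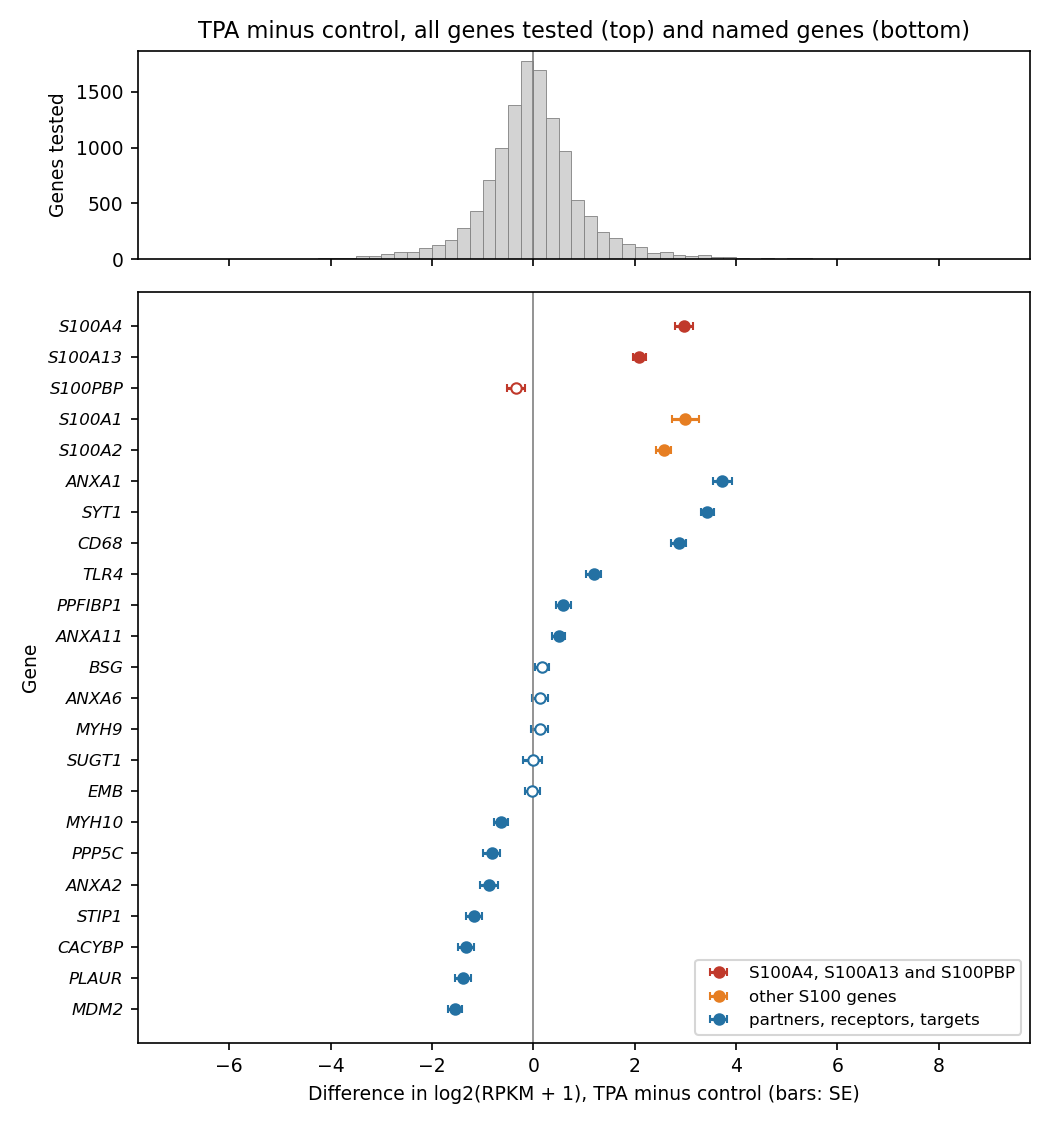
Difference in log2(RPKM + 1), TPA minus control (x axis, bars are SE), for the tested members, the other tested S100 genes and tested partners, receptors and targets, below a histogram of the same difference over all 12159 genes tested (y axis, number of genes). Filled points have a limma adjusted p under 0.05; S100A4 and S100A13 stand at 2.98 and 2.09, to the right of most genes, and S100PBP, open, at -0.34.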

How the data were processed

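RNA of 4 libraries (2 TPA, 2 control) was analysed, grouped by the titles in the labels. The authors deposited 1 RPKM value per gene and library, to 3 decimals, per the file headers. The submitters' processing notes name CASAVA 1.8, Bowtie 1.12, TopHat, SAMtools and HOMER with build hg19, without role or order. Read totals, strand and the treatment of reads with several positions are not given in the sources used here, so shared reads of overlapping or near-identical genes are uncertain. Relative depth came from the steps between values of 0.03 to 0.15 RPKM.

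Genes reaching 1 RPKM in 2 or more libraries were fitted as log2(RPKM + 1) in R 4.3.3 with limma 3.58.1 (empirical Bayes with a mean-variance trend, two-sided, Benjamini-Hochberg over 12159 genes), a script tested on simulated data. On this scale changes of low genes are understated. No exact permutation test was run, because 0.333 is the smallest two-sided p that 2 against 2 libraries allow. RefSeq tables of GRCh38.p14 gave promoter windows, gene order and overlaps only. The members and gene lists were chosen with earlier results of these data known. All 10 members are named; partners are named if called with a difference of at least 1, with 8 named in any case, and for the other lists the 3 largest changes in each direction; a few listed genes are counted but not reported here. Partners, S100 genes and chromosome neighbours named outside this rule, and the promoter windows shown, were chosen after their values were seen. Alternatives were pseudocounts of 0.1 and 0.5, a filter at 5 RPKM or none, scaling by median of ratios or by quantiles, limma without trend or with robust estimation, the replicate number as a block, and each library left out. Figures used matplotlib 3.10.9.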

Additional observations from a re-analysis of the deposited data

How the results depend on the processing

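S100A4 and S100A13 rose in each of the 13 alternatives. With no filter on low values 4 members rose, the added ones being S100A11 and S100A16. With the replicate number as a block 1 member fell, S100PBP, at an unchanged difference of -0.34 (limma adjusted p = 0.0216). With 1 library left out, 2 members rose each time, 0 to 1 fell, and the S100PBP difference ran from -0.55 to -0.13; the cause was not tested. The lone library of a group is then assumed to vary like the other group, and p-values without a control replicate, where the prior degrees of freedom were infinite, cannot be set beside the rest. The labels do not say that the replicate number pairs libraries; the replicate differences of the groups correlated at 0.361 across genes, and with the block 3946 genes rose and 4288 fell, against 3454 and 3621 without it. MYH9, not called, ran from -0.019 to 0.28 with 1 library left out and was below 0 without TPA replicate 1 (-0.0075) and without control replicate 2 (-0.019). SUGT1, not called, was above 0 after quantile normalization (0.083) and ran from -0.21 to 0.19 with 1 library left out. No other gene recomputed changed direction. With the block CHTOP and SNAPIN were called higher (adjusted p = 0.0284 and 0.0499). Depth in reads is unknown, so values under 1 RPKM carry no interval.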

Other observations

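Other EF-hand genes, which share the calcium-binding loop but are no S100 genes, were called at shares close to those of all genes. Among the 35 that could be tested, 9 were called higher and 10 lower and 16 were not called, with a median log2 difference of -0.01; these are 25.7% and 28.6%, against 28.4% and 29.8% over all genes tested. The largest rises were those of STIM1 and STIM2, calcium sensors of the endoplasmic reticulum that open calcium entry channels at the cell surface. STIM1 had 22.4 and 24.7 RPKM with TPA, against 1.38 and 1.21 RPKM in control, and STIM2 had 241 and 216 RPKM with TPA, against 19.95 and 21.29 RPKM in control (limma adjusted p = 6.94e-07 and 8.00e-07). The largest falls were those of the actin bundler gene PLS3 (log2 difference -2.24), RASEF (-2.05, tested through the control libraries alone) and the calcineurin B homologue TESC (-1.55). The 7 fused-type S100 genes, which build the cornified layer of skin, reached at most 0.003 RPKM.

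S100A6 was among 9 genes with at least 0.5 RPKM in replicate 1 of both groups and at least 5 times the value of replicate 2 in both, a pattern searched for after its values were seen. The others were MIR210HG, MTRNR2L2 and 6 microRNA genes, and the opposite pattern was found in 1 gene, MIR328.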
